A study of Mus musculus with 4 samples.

Results

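Radial glia are the stem cells of the developing cerebral cortex. Their bodies line the ventricle, a long fibre runs from each of them to the brain surface, and they give rise to neurons and later to astrocytes. Sox and Pax transcription factors keep them in a progenitor state, nestin and vimentin build the filaments of the fibre, and a set of membrane and matrix proteins marks their surface. The 10 genes described here are the identity genes of these cells, chosen by name: Pax6, Sox1, Sox2, Sox3, Nes, Vim, Prom1, Hopx, Tnc and Ptprz1. All 10 were among the 20385 genes listed in both deposited tables, and all 10 were among the 16371 genes that passed the filter on low counts.

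The libraries came from cerebral cortex dissected from C57BL/6 mouse embryos at embryonic day 16, 2 from Cd93 knockouts (KO 5 and KO 6) and 2 from wild types (WT 1 and WT 4). CD93 is a membrane lectin known mainly from endothelial cells, and the series asks how it acts on the formation of astrocytes. The labels name no treatment, and neither the allele nor the deleted part of Cd93 is given in the sources used here. They do not say that each library is its own animal, so a p-value measures the spread between these libraries, which may be technical, and the design text speaks of triplicates while 4 libraries were analysed here. The authors deposited 1 table with KO 6 and WT 1 (table A) and 1 with KO 5 and WT 4 (table B). RNA came from the whole tissue, so a lower level of a radial glia gene from fewer radial glia cannot be told apart from one with less of its RNA per cell.

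The 3 Sox genes of the list form the SoxB1 group, whose proteins share a nearly identical DNA-binding HMG box, so their counts rest on reads that tell close copies apart. A stretch of 75 coding bases inside the HMG box is shown for that reason, on GRCm38, 5′ to 3′ on the coding strand, with capitals at the 8 positions where the 3 genes are not all alike.
Sox2, chr3:34650549-34650623, plus strand: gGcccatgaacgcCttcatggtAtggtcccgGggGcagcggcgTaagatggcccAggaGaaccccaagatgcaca
Sox1, chr8:12396518-12396592, plus strand: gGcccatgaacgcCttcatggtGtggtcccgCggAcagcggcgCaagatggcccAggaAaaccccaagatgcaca
Sox3, chrX:60892920-60892994, minus strand: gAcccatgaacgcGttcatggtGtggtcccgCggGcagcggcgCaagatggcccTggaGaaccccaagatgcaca
Sox1 differed from Sox2 at 5 of these 75 positions and Sox3 differed from Sox2 at 6. Over the whole coding sequences the longest run of identical bases was 45 for Sox1 with Sox3, 38 for Sox1 with Sox2 and 32 for Sox2 with Sox3. Reads that fall inside such a run cannot be placed in 1 gene, but the runs are short parts of the genes: of all 25-base words in their transcripts, 3.02% in Sox1, 1.77% in Sox2 and 2.55% in Sox3 also occurred in a transcript of another gene on either strand.

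Depth was even, from 16318317 counts in KO 6 to 17586157 in WT 1, and TMM factors lay between 0.994 and 1.01. Cd93, the deleted gene, had 111 counts in KO 5 and 99 in KO 6, against 680 in WT 1 and 409 in WT 4, a log2 fold change of −2.32 (adjusted p 0.211 in edgeR's quasi-likelihood fit). It passed in 4 of 11 alternatives, with an adjusted p of 3.91e-12 by DESeq2, 0.000971 by edgeR with the deposited table as a block, 1.63e-05 by edgeR without WT 1 and 4.13e-09 by edgeR without WT 4. The cortical neuron gene Tbr1 had at least 5127 counts in every library. WT 1 had the highest sums of markers of neighbouring tissue. Of 16 markers of the ganglionic eminence, the ventral region beside the cortex, 15 could be tested. All 15 were lower in KO, 8 at an unadjusted p under 0.05 and none after adjustment, and they summed to 448 and 648 CPM (counts scaled to a common library size) in KO 5 and KO 6, against 1101 CPM in WT 1 and 622 CPM in WT 4. Of 12 meningeal markers, 11 could be tested and summed to 43.7 and 77.9 CPM in KO 5 and KO 6, against 556 CPM in WT 1 and 85.2 CPM in WT 4. Endothelial markers (11 of 12 tested) summed to 147 and 145 CPM in KO 5 and KO 6, against 250 CPM in WT 1 and 145 CPM in WT 4. Microglial markers (10 of 10) summed to 43.1 and 47.0 CPM in KO 5 and KO 6, against 90.1 CPM in WT 1 and 46.5 CPM in WT 4. No marker of these 4 lists that both tables hold was at 0 counts in a library. The tested meningeal (11), endothelial (11) and microglial (10) markers were all lower in KO too. Both KO libraries were below both WT libraries for 9 eminence, 5 meningeal, 2 endothelial and 4 microglial markers, beside 11.9% of all genes. The median log2 ratio of KO 5 over WT 4 was −0.99 for eminence, −1.16 for meningeal, 0.02 for endothelial and −0.27 for microglial markers.

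Radial glia identity genes did not pass the test between genotypes. In edgeR's quasi-likelihood fit, with p-values adjusted over all tested genes (Benjamini-Hochberg), 0 of the 10 had an adjusted p under 0.05, where 2 of all 16371 genes (0.0122%) did, and DESeq2 also called 0 of the 10. Leaving out 1 library moved these counts: without WT 4 edgeR called 312 genes and 1 member, without WT 1 it called 44 and 0, without KO 5 it called 5 and 0, and without KO 6 it called 8 and 0. At an unadjusted p under 0.05 there was 1 member, Sox1, or 10% of the list, beside 1.94% of all genes. Log2 fold changes of KO over WT were above 0 for 4 members and below 0 for 6, with a median of −0.056. Over all genes 8022 were above 0 and 8349 below, with a median of −0.0028. The members' median was −0.25 without KO 5, 0.11 without KO 6, 0.02 without WT 4 and −0.02 without WT 1. The 95% intervals of the 10 genes reached at the widest a fold of 0.511 for Sox1 and 2.203 for Hopx, and larger changes in those directions lay outside these intervals. A design of 2 against 2 libraries cannot give an exact two-sided permutation p under 0.333 for a single gene, and this was the value of Sox1, Hopx, Tnc and Ptprz1.

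Added together, the 10 genes had 1798 CPM in KO 5 and 1585 CPM in KO 6, against 1777 CPM in WT 1 and 1730 CPM in WT 4. That is 0.180% and 0.159% of the counts in the KO libraries, against 0.178% and 0.173% in the WT libraries. KO 6 was the lowest and KO 5 the highest, so the WT sums lay inside the KO range. Vim made up 31.2% and Ptprz1 27.9% of the summed level.

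**Figure D1:**
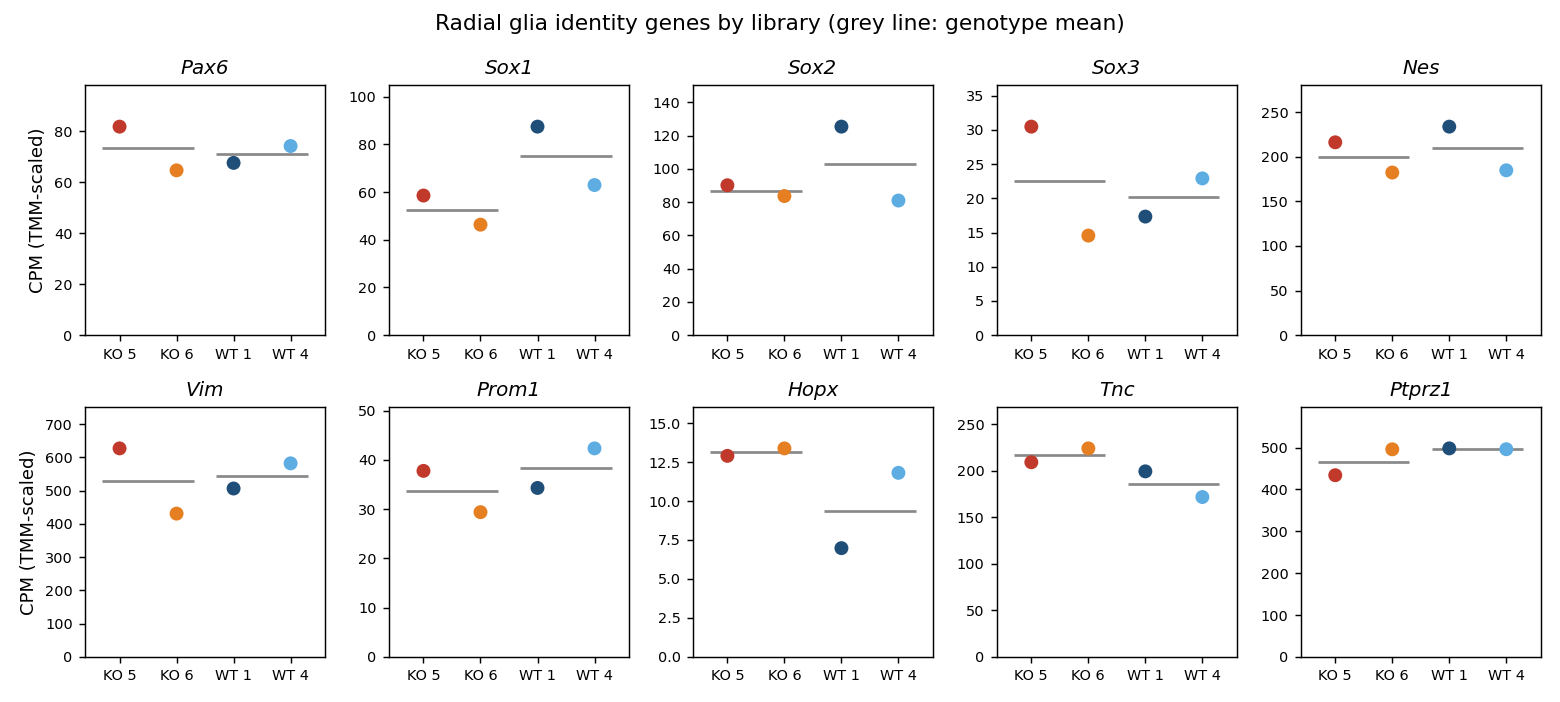
Level of each radial glia identity gene in the 4 libraries, as TMM-scaled CPM (vertical axis from 0, a scale of its own per gene), with KO 5 and KO 6 left of WT 1 and WT 4 and a grey line at the mean of each genotype. Sox1 and Ptprz1 have both KO points below the WT points, Hopx and Tnc have both above them, and the other 6 genes overlapped. For Ptprz1, KO 6 and WT 4 are level, and the genotypes overlap when scaled by library totals.

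Pax6 encodes a paired-box transcription factor that marks dorsal, cortex-forming radial glia and drives them towards neurons. The gene (ENSMUSG00000027168, GRCm38 chromosome 2, 105668900 to 105697364, plus strand) had 1433 counts (81.8 CPM) in KO 5 and 1049 (64.7 CPM) in KO 6, against 1201 (67.6 CPM) in WT 1 and 1263 (74.2 CPM) in WT 4. Both WT values lay between the KO values. The mean was 73.2 ± 12.1 CPM in KO and 70.9 ± 4.68 CPM in WT (SD, n = 2 each), and KO over WT gave a log2 fold change of 0.05 with a 95% interval of −0.28 to 0.38. The unadjusted p of edgeR's test was 0.741. Without WT 1 the sign turned, at −0.02, and without KO 5 it was −0.13.

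Sox1, a SoxB1 factor of neural progenitors, was the member with the lowest unadjusted p. The gene (ENSMUSG00000096014, chromosome 8, 12395295 to 12400126, plus strand) had 1026 counts (58.6 CPM) in KO 5 and 752 (46.4 CPM) in KO 6, against 1555 (87.5 CPM) in WT 1 and 1072 (63.0 CPM) in WT 4. Both KO libraries were below both WT libraries, by a small gap between KO 5 and WT 4, with WT 1 far above the rest. The mean was 52.5 ± 8.64 CPM in KO and 75.2 ± 17.3 CPM in WT (SD, n = 2 each). The log2 fold change was −0.52 with a 95% interval of −0.97 to −0.07, and edgeR's unadjusted p of 0.0295 was the 148th lowest of all genes, so that it did not pass after adjustment. WT 1 was also the library highest in ganglionic eminence and meningeal markers, and without it the log2 fold change of Sox1 was −0.26. Without WT 4, which leaves WT 1 to stand for WT, it was −0.73 with an adjusted p of 0.0158 by edgeR, in a fit that called 1.82% of all genes. The part of those markers in the Sox1 values was not tested. Without WT 1, KO 5 was still below WT 4 in these markers, while KO 6 was near WT 4. The median log2 ratio of KO 5 over WT 4 was −0.99 for ganglionic eminence and −1.16 for meningeal markers. Eminence markers summed to 648 CPM in KO 6 against 622 CPM in WT 4, and meningeal markers to 77.9 against 85.2 CPM.

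Sox2 keeps progenitors of the nervous system undifferentiated and is the SoxB1 gene with the highest level per kilobase of exon here. The gene (ENSMUSG00000074637, chromosome 3, 34650405 to 34652461, plus strand) had 1579 counts (90.1 CPM) in KO 5 and 1357 (83.6 CPM) in KO 6, against 2229 (125 CPM) in WT 1 and 1378 (81.0 CPM) in WT 4. WT 1 alone was high, and WT 4 was the lowest of the 4. The mean was 86.9 ± 4.59 CPM in KO and 103 ± 31.4 CPM in WT (SD, n = 2 each), and KO over WT gave a log2 fold change of −0.25 with a 95% interval of −0.73 to 0.23 and an unadjusted p of 0.257 by edgeR. Without WT 1 the sign turned and the log2 fold change was 0.10.

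Sox3, the X-linked SoxB1 gene, was the member whose KO libraries differed most from each other. The gene (ENSMUSG00000045179, chromosome X, 60891366 to 60893430, minus strand) had 534 counts (30.5 CPM) in KO 5 and 236 (14.5 CPM) in KO 6, against 308 (17.3 CPM) in WT 1 and 390 (22.9 CPM) in WT 4. Both WT values again lay between the KO values, and the log2 ratio of KO 5 over KO 6 was 1.06. The mean was 22.5 ± 11.3 CPM in KO and 20.1 ± 3.95 CPM in WT (SD, n = 2 each), and KO over WT gave a log2 fold change of 0.16 with a 95% interval of −0.64 to 0.97. Its unadjusted p was 0.642, and the sign turned without WT 1 (−0.02) and without KO 5 (−0.47). Xist, the RNA that coats the inactive X chromosome in female cells, had 19747 counts in KO 5 and 24670 in KO 6, against 23675 in WT 1 and 21264 in WT 4.

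The SoxB1 genes did not keep 1 ratio to each other over the libraries. Sox1 stood to Sox2 as 0.650 in KO 5 and 0.554 in KO 6, against 0.698 in WT 1 and 0.778 in WT 4 (ratios of CPM). Sox3 stood to Sox2 as 0.338 in KO 5 and 0.174 in KO 6, against 0.138 in WT 1 and 0.283 in WT 4. The Sox1 to Sox2 ratio of each KO library was below that of each WT library. The Sox3 to Sox2 ratio was highest in KO 5 and lowest in WT 1. Such ratios were not tested between genotypes, and no share over other gene pairs was computed. The ratio of Sox2 to Pax6 was 1.10 and 1.29 in KO 5 and KO 6, against 1.86 in WT 1 and 1.09 in WT 4, with WT 1 alone high.

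Nestin, from Nes, and vimentin, from Vim, are the intermediate filament proteins of the radial fibre. Nes (ENSMUSG00000004891, chromosome 3, 87971078 to 87980451, plus strand) had 3789 counts (216 CPM) in KO 5 and 2959 (182 CPM) in KO 6, against 4157 (234 CPM) in WT 1 and 3148 (185 CPM) in WT 4. Each genotype had 1 higher and 1 lower library, at nearly matching levels. The mean was 199 ± 24.0 CPM in KO and 209 ± 34.6 CPM in WT (SD, n = 2 each), and KO over WT gave a log2 fold change of −0.07 with a 95% interval of −0.44 to 0.30 and an unadjusted p of 0.657 by edgeR. Leaving out WT 1 turned the sign to 0.11, and leaving out KO 6 turned it to 0.05.

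Vim (ENSMUSG00000026728, chromosome 2, 13573927 to 13582826, plus strand) had 10984 counts (627 CPM) in KO 5 and 6990 (431 CPM) in KO 6, against 9000 (506 CPM) in WT 1 and 9909 (582 CPM) in WT 4. The KO libraries were the highest and the lowest of the 4. The mean was 529 ± 139 CPM in KO and 544 ± 53.5 CPM in WT (SD, n = 2 each), and KO over WT gave a log2 fold change of −0.04 with a 95% interval of −0.49 to 0.41 and an unadjusted p of 0.835. Without KO 5 it was −0.34, without KO 6 it was 0.21 and without WT 4 it was 0.07, so that its sign followed the library left out. The ratio of Nes to Vim was 0.345 and 0.423 in KO 5 and KO 6, against 0.462 in WT 1 and 0.318 in WT 4, and the genotypes overlapped.

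Prom1 encodes prominin-1, a membrane glycoprotein of the protrusions on the ventricular side of radial glia. The gene (ENSMUSG00000029086, chromosome 5, 43993620 to 44102032, minus strand) had 662 counts (37.8 CPM) in KO 5 and 477 (29.4 CPM) in KO 6, against 610 (34.3 CPM) in WT 1 and 721 (42.4 CPM) in WT 4. The genotypes overlapped, with KO 5 above WT 1. The mean was 33.6 ± 5.93 CPM in KO and 38.3 ± 5.68 CPM in WT (SD, n = 2 each), and KO over WT gave a log2 fold change of −0.19 with a 95% interval of −0.60 to 0.22 and an unadjusted p of 0.305. Without KO 5 it was −0.38, without KO 6 −0.0165 and without WT 4 −0.0243. Gm16401, a gene on the opposite strand of Prom1, shared 377 of the 7372 25-base words of Prom1 and had 11 to 19 counts per library.

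Hopx, Tnc and Ptprz1 are best known from human cortex, where they mark outer radial glia, the progenitors that have left the ventricle. HOPX is a small homeodomain protein that does not bind DNA itself. The gene (ENSMUSG00000059325, chromosome 5, 77086988 to 77115121, minus strand) had 226 counts (12.9 CPM) in KO 5 and 217 (13.4 CPM) in KO 6, against 124 (6.98 CPM) in WT 1 and 201 (11.8 CPM) in WT 4. The KO libraries were nearly alike and above both WT libraries, with WT 1 alone low. The margin of KO 5 over WT 4 was within counting error. The mean was 13.1 ± 0.335 CPM in KO and 9.39 ± 3.42 CPM in WT (SD, n = 2 each), and KO over WT gave a log2 fold change of 0.48 with a 95% interval of −0.17 to 1.14 and an unadjusted p of 0.122 by edgeR. Without WT 1 it was 0.15 and without WT 4 it was 0.92, and it passed the test in neither. Of the 25-base words of Hopx, 26.7% occurred in other transcripts, nearly all in the antisense gene Hopxos, which had 2 to 6 counts per library, and 0.668% occurred on the same strand.

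Tnc encodes tenascin-C, a large glycoprotein of the matrix around progenitors. The gene (ENSMUSG00000028364, chromosome 4, 63959785 to 64047015, minus strand) had 3664 counts (209 CPM) in KO 5 and 3636 (224 CPM) in KO 6, against 3544 (199 CPM) in WT 1 and 2925 (172 CPM) in WT 4. Both KO libraries were above both WT libraries. The mean was 217 ± 10.6 CPM in KO and 186 ± 19.5 CPM in WT (SD, n = 2 each), and KO over WT gave a log2 fold change of 0.22 with a 95% interval of −0.06 to 0.51. The unadjusted p by edgeR was 0.108. The sign held in each of the 11 alternatives, with values of 0.13 to 0.34.

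Ptprz1 encodes a receptor tyrosine phosphatase whose extracellular part binds the growth factor pleiotrophin and tenascins. The gene (ENSMUSG00000068748, chromosome 6, 22875502 to 23052916, plus strand) had 7603 counts (434 CPM) in KO 5 and 8045 (496 CPM) in KO 6, against 8853 (498 CPM) in WT 1 and 8445 (496 CPM) in WT 4. KO 6 and both WT libraries were level, with a log2 ratio of −0.0006 between KO 6 and WT 4, and KO 5 was lower. The mean was 465 ± 43.7 CPM in KO and 497 ± 1.42 CPM in WT (SD, n = 2 each), and KO over WT gave a log2 fold change of −0.10 with a 95% interval of −0.37 to 0.18 and an unadjusted p of 0.432. Without KO 5 the log2 fold change was −0.0023. The ratio of Hopx to Tnc was 0.0617 and 0.0597 in KO 5 and KO 6, against 0.0350 in WT 1 and 0.0687 in WT 4, so WT 1 alone was low.

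Each KO library was thus above each WT library for Hopx and Tnc, and below each for Sox1 and Ptprz1. The margin was within counting error for Ptprz1 and for Hopx (226 counts in KO 5, 201 in WT 4). These are 4 of 10 members, while KO and WT libraries were fully apart in 23.4% of all genes. KO was above WT in 11.5% and below WT in 11.9%. Scaled by library totals without TMM, an alternative chosen after the values were seen, Ptprz1 had 433 and 493.1 CPM in KO 5 and KO 6, against 503.5 CPM in WT 1 and 492.4 CPM in WT 4. The genotypes then overlapped, which leaves 3 of 10 members beside 23.5% of all genes. For 8 of the 10 genes the difference between genotypes was smaller than the larger of the differences between libraries of the same genotype, and this held for 85.4% of all genes. The counting error of a single value ran from 0.954% of the count for Vim in KO 5 to 8.98% for Hopx in WT 1.

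Libraries of the same genotype differed widely in these genes. The members' median absolute log2 ratio was 0.291 between KO 5 and KO 6 and 0.321 between WT 1 and WT 4, and over all genes it was 0.194 and 0.182. KO 5 was above KO 6 for 7 members, beside 8069 of all 16371 genes, and KO 6 was the lowest of the 4 libraries for 6 members. WT 1 was above WT 4 for 5 members, among them Sox1, Sox2 and Nes, and below it for 5, among them Hopx and Sox3.

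The deposited tables gave opposite signs for 5 of 10 members, about as often as for all genes. In table A, KO 6 was lower than WT 1 for 8 of 10 members, with a median log2 ratio of −0.23, and in table B, KO 5 was higher than WT 4 for 7 of 10, with a median of 0.13. Over all genes these medians were −0.0008 and −0.0016, with 8208 of 16371 genes lower in table A and 8114 higher in table B. Pax6, Sox2, Sox3, Nes and Vim were lower in KO in table A and higher in KO in table B, and such an opposite sign was seen in 54.9% of all genes. For Sox2 the log2 ratio was −0.58 in table A but 0.15 in table B, and for Nes it was −0.36 in table A but 0.23 in table B. Sox1 was lower in KO in both, at −0.91 in table A and −0.10 in table B. Prom1 was likewise lower, at −0.22 and −0.16. Hopx was higher in both at 0.93 and 0.13, and Tnc at 0.17 and 0.28.

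**Figure D2:**
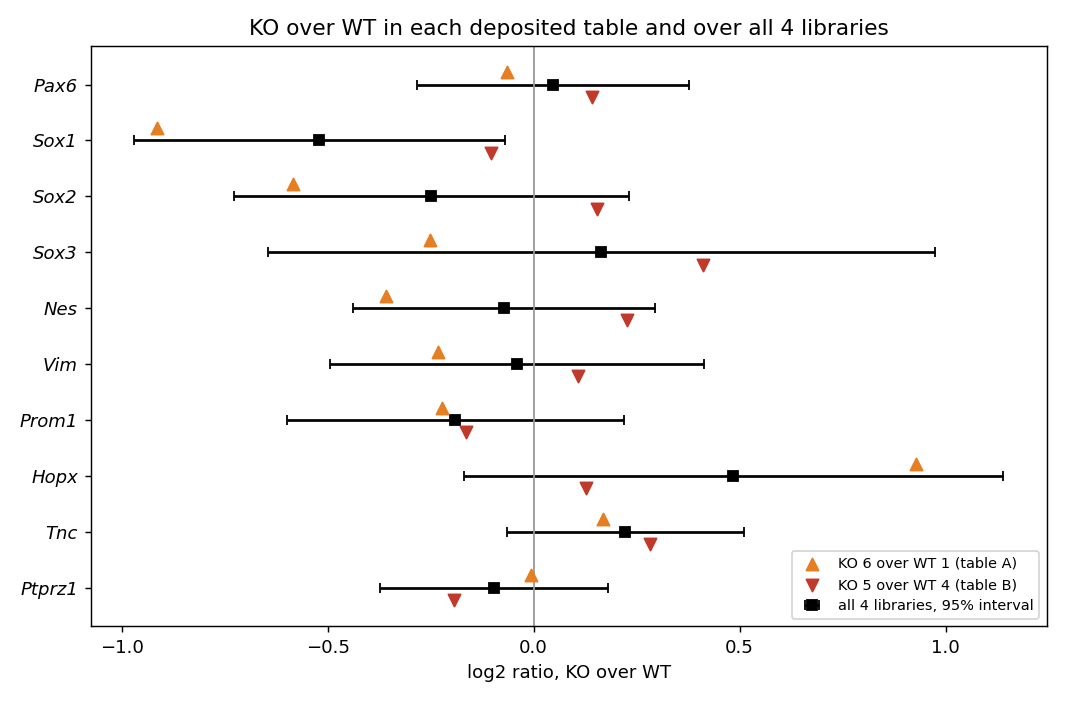
Log2 ratio of KO over WT for each radial glia identity gene (horizontal axis) within table A (KO 6 over WT 1, upward triangles), within table B (KO 5 over WT 4, downward triangles) and over all 4 libraries (squares with the 95% interval of edgeR's fit). The triangles of 5 genes lie on opposite sides of 0, and the interval of Sox1 alone does not cross 0.

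The authors' deposited table A gave 7 of the members an adjusted p under 0.05, 2 higher and 5 lower in KO, where 21.2% of the genes in that table had one. Their deposited table B also gave 7, with 6 higher and 1 lower in KO, against 12.9% of its genes. These deposited p-values compare 1 library with 1 library. The shares cover all genes listed in a table, also those with few counts. In level, the members lay above 38.9% (Hopx) to 98.9% (Vim) of the tested genes, and the shares were not matched to level. In the authors' deposited tables Sox2 had a log2 fold change of −0.61 with an adjusted p of 1.66e-33 in table A and of 0.16 with an adjusted p of 0.0188 in table B. For Nes the authors' deposited tables gave −0.38 with 8.67e-27 in table A and 0.23 with 1.01e-09 in table B, again of opposite sign. For Sox1 the authors' deposited tables gave −0.94 with 9.74e-50 in table A and −0.10 with 0.305 in table B.

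Divided by exon length, so that genes can be set against each other, Vim was the highest member at 90.8 to 132 CPM per kilobase over the 4 libraries. Sox2 came next at 39.4 to 61.0 CPM per kilobase, above the other transcription factors of the list. Ptprz1 (30.5 to 35.0), Nes (28.4 to 36.5) and Tnc (22.1 to 28.8 CPM per kilobase) followed, and the range of each overlapped that of the next. Sox1 (9.59 to 18.1), Sox3 (7.05 to 14.8), Hopx (4.60 to 8.82), Pax6 (5.53 to 6.996) and Prom1 (4.098 to 5.90 CPM per kilobase) formed the lower part, where neighbours in the order overlapped too. Between neighbours, ranges were apart only for Vim and Sox2, Sox2 and Ptprz1, and Tnc and Sox1. The length was that of all annotated exons of a gene, 11.7 kilobases over 26 transcripts for Pax6 and 2.06 kilobases in 1 transcript for Sox2, so a gene with many isoforms reads lower than its main transcript would.

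**Figure D3:**
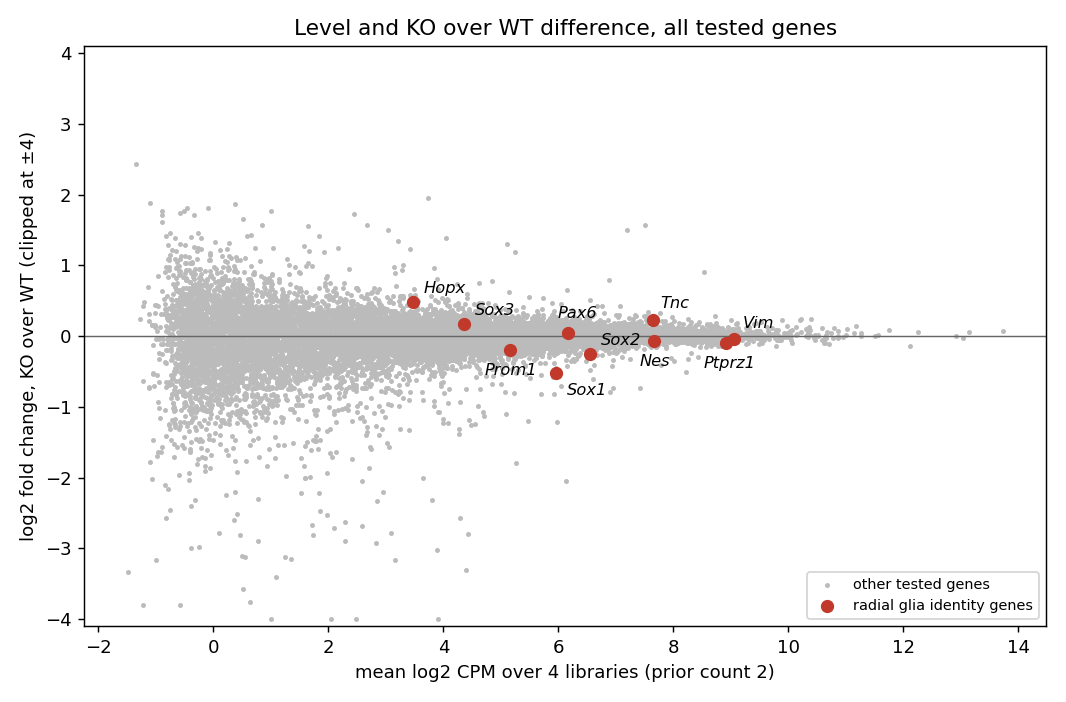
Log2 fold change of KO over WT (vertical axis, values clipped at 4 in either direction) against mean log2 CPM over the 4 libraries (horizontal axis) for 16371 tested genes in grey, with the 10 radial glia identity genes in red. The members span the range of levels from Hopx to Vim, and their log2 fold changes lie between −0.52 and 0.48.

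Upstream sequences are shown for Sox2 and Nes, which had the same pair of higher libraries (KO 5 and WT 1), and for Hopx, which was lowest where they were highest. Each is a RefSeq window on GRCm38.p6 from 250 bases before to 50 after a start, 300 bases, 5′ to 3′ on the gene's strand, with capitals at matches to the GC box GGGCGG or the CCAAT box on either strand.
Sox2, chr3:34649745-34650044, plus strand: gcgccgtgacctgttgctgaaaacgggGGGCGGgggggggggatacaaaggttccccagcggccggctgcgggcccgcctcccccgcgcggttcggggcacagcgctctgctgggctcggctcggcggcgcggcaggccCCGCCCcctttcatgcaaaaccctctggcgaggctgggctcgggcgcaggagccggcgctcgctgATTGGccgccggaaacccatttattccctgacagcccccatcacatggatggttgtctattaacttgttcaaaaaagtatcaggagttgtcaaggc
Nes, chr3:87970843-87971142, plus strand: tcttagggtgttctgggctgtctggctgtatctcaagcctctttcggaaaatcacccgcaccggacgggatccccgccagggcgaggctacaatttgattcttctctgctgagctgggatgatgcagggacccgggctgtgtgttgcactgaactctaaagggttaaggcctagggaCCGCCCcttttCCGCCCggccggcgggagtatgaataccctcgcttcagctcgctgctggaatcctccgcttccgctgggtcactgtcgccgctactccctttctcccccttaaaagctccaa
Hopx, chr5:77115074-77115373, minus strand: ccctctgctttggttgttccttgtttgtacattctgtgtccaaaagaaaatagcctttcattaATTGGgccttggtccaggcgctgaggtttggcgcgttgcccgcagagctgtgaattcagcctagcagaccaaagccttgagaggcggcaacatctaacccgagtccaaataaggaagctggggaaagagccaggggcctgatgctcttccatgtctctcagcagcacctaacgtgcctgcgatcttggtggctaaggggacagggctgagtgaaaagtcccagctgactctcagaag
The Sox2 window, which ends before the deposited start of the gene, was 66.3% GC with 27 CpG and held 2 GC boxes and 1 CCAAT box. The Nes window was 58.7% GC with 18 CpG and held 2 GC boxes, and the Hopx window was 53.0% GC with 8 CpG and held 1 CCAAT box. A further RefSeq window of Hopx, at a start inside the gene (chr5:77095218-77095517), was 59.0% GC with 21 CpG and also held 1 CCAAT box. Over 32851 RefSeq windows of this length the median was 52.7% GC and 7 CpG. Of 13 windows for 9 members, 7 held a GC box (35.7% of all windows), 7 a CCAAT box (37.4%), 3 the TATA box TATAAA (13.6%), 5 the Sox core ACAAT (31.0%) and 7 the E box CANNTG (72.3%), each searched on both strands. Both windows of Tnc overlap and share a GC box, a TATA box, a Sox core and E boxes, so each of these is counted in both. No match printed in capitals overlaps another.

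Of 20 further radial glia genes, all 20 were tested, 9 were higher and 11 lower in KO, and none passed by edgeR. The median of their log2 fold changes was −0.02, and 0 had an unadjusted p under 0.05. DESeq2 likewise called no gene of the lists described here. They summed to 2518 and 2271 CPM in KO 5 and KO 6, against 2470 CPM in WT 1 and 2299 CPM in WT 4. Their median log2 ratio was −0.18 for KO 6 over WT 1 (table A) and 0.18 for KO 5 over WT 4 (table B). Fabp7, a fatty acid binding protein of radial glia, had 370 and 495 CPM in KO 5 and KO 6, against 571 and 374 CPM in WT 1 and WT 4. The 3 genes of the list with the lowest p were Emx2, Tfap2c and Ednrb. Emx2, a homeobox factor of the dorsal cortex, had 37.1 and 34.6 CPM in KO 5 and KO 6, against 23.8 and 32.0 CPM in WT 1 and WT 4 (log2 fold change 0.36, unadjusted p 0.0658 by edgeR). Tfap2c, a transcription factor of cortical progenitors, had a log2 fold change of 0.39, and 0.0169 without KO 5. Ednrb, the endothelin receptor B, had one of −0.24, and −0.0093 without WT 1.

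Of 14 further outer radial glia genes, 13 were tested, with 5 higher, 8 lower and none called, a median log2 fold change of −0.10 and 1 gene at an unadjusted p under 0.05. Stat3, the signal transducer that receives cytokine signals in glial differentiation, had 38.3 and 36.4 CPM in KO 5 and KO 6, against 29.1 and 31.9 CPM in WT 1 and WT 4. Its libraries did not overlap between genotypes, and its log2 fold change of 0.29 had an unadjusted p of 0.047 by edgeR and did not pass after adjustment. Acsbg1, an acyl-CoA synthetase, had a log2 fold change of −0.52 with 14.9 and 12.1 CPM in KO 5 and KO 6, against 23.1 and 15.5 CPM in WT 1 and WT 4. Gpx3, a secreted glutathione peroxidase, had 5.88 and 4.81 CPM in KO 5 and KO 6, against 5.18 CPM in WT 1 and 21.4 CPM in WT 4. Its log2 fold change of −1.31 was 0.05 without WT 4 and −2.0005, with an adjusted p of 2.61e-05, without WT 1.

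Genes that PAX6 or SOX2 are known to regulate were tested in 16 of 17 cases, with 9 higher, 7 lower, none called, a median log2 fold change of 0.01 and 1 gene at an unadjusted p under 0.05. Pou3f4, a POU-domain factor with much expression in the ventral forebrain, had the lowest p of them, 0.00647 unadjusted by edgeR, with 10.9 and 10.2 CPM in KO 5 and KO 6, against 28.1 and 16.1 CPM in WT 1 and WT 4. Its log2 fold change of −1.07 did not pass, was −0.61 without WT 1, and passed at −1.41 without WT 4 with an adjusted p of 0.000177. Ganglionic eminence markers were highest in WT 1 as well, and their part in the Pou3f4 values was not tested. Eomes, the factor of intermediate progenitors, had 187 and 120 CPM in KO 5 and KO 6, against 113 and 154 CPM in WT 1 and WT 4, and the genotypes overlapped. Lin28b, an RNA-binding protein of early progenitors, had a log2 fold change of −0.37.

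Of 13 close relatives and neighbours of the Sox, Pax and Prom1 genes, 5 were tested, 1 higher and 4 lower in KO, and none passed. Sox2ot, a long RNA whose gene spans Sox2 on the same strand, had 460 and 507 counts in KO 5 and KO 6, against 797 and 504 in WT 1 and WT 4. It was highest in WT 1, as Sox2 was, and since it surrounds Sox2 some reads may be shared. Pax6os1, which overlaps Pax6 on the other strand, had 8 to 23 counts per library and a log2 fold change of 0.65. Prom2, the relative of Prom1, had 0.400 and 0.493 CPM in KO 5 and KO 6, against 0.619 and 1.23 CPM in WT 1 and WT 4 (log2 fold change −1.04).

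Genes of other intermediate filaments, of lamins and of the filament linker plectin numbered 12 tested of 14, with 1 higher, 11 lower and none called, a median of −0.08 and 2 genes at an unadjusted p under 0.05. Lmna, which encodes lamin A and C of the nuclear envelope, had 11.5 and 11.3 CPM in KO 5 and KO 6, against 15.6 and 15.9 CPM in WT 1 and WT 4. Its libraries of a genotype were close together, its log2 ratio was −0.46 in both tables, and its unadjusted p of 0.0257 by edgeR did not pass. Gfap, the filament gene of astrocytes, had 75 and 89 counts in KO 5 and KO 6, against 20 in WT 1 and 53 in WT 4. Its log2 fold change was 1.204 with an unadjusted p of 0.0433, it was 0.65 without WT 1, and without WT 4 it was 2.11 with an adjusted p of 0.00495. Des, the muscle filament desmin, had 8 to 9 counts in KO and 11 to 25 in WT, a log2 fold change of −1.02.

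Partners of tenascin-C and PTPRZ1 numbered 20 tested of 21, with 7 higher, 13 lower and none called, a median of −0.05 and 2 genes at an unadjusted p under 0.05. Ptn, the pleiotrophin ligand of PTPRZ1, had 493 and 548 CPM in KO 5 and KO 6, against 575 and 503 CPM in WT 1 and WT 4, and the genotypes overlapped. Alk, a receptor kinase, had 3.14 and 2.77 CPM in KO 5 and KO 6, against 5.06 and 4.70 CPM in WT 1 and WT 4, a log2 fold change of −0.72 with an unadjusted p of 0.0346. Itgb3, an integrin chain that binds matrix proteins, had 11 and 14 counts in KO 5 and KO 6, against 31 and 26 in WT 1 and WT 4, a log2 fold change of −1.13. Bcan, the proteoglycan brevican, had 89.6 and 66.1 CPM in KO 5 and KO 6, against 47.8 and 66.0 CPM in WT 1 and WT 4. Its log2 fold change was 0.45 and passed only without WT 4, at 0.71 with an adjusted p of 0.0442.

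Of 12 proliferation genes, all 12 were lower in KO over the 4 libraries and none passed, with a median of −0.16. They summed to 1018 and 828 CPM in KO 5 and KO 6, against 1083 and 956 CPM in WT 1 and WT 4, so that the genotypes overlapped and KO 6 was lowest, as it was for most members. Their median log2 ratio was −0.42 for KO 6 over WT 1 (table A) and 0.10 for KO 5 over WT 4 (table B). Intermediate progenitor genes (10 tested) summed to 996 and 724 CPM in KO 5 and KO 6, against 771 and 920 CPM in WT 1 and WT 4, with 5 higher and 5 lower. Neuron genes (12 tested) summed to 9906 and 10090 CPM in KO 5 and KO 6, against 8984 and 10260 CPM in WT 1 and WT 4, with 9 higher and 3 lower. None of these passed in edgeR, 1 proliferation gene and 1 neuron gene had an unadjusted p under 0.05, and their part in the members' values was not tested.

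**Figure D4:**
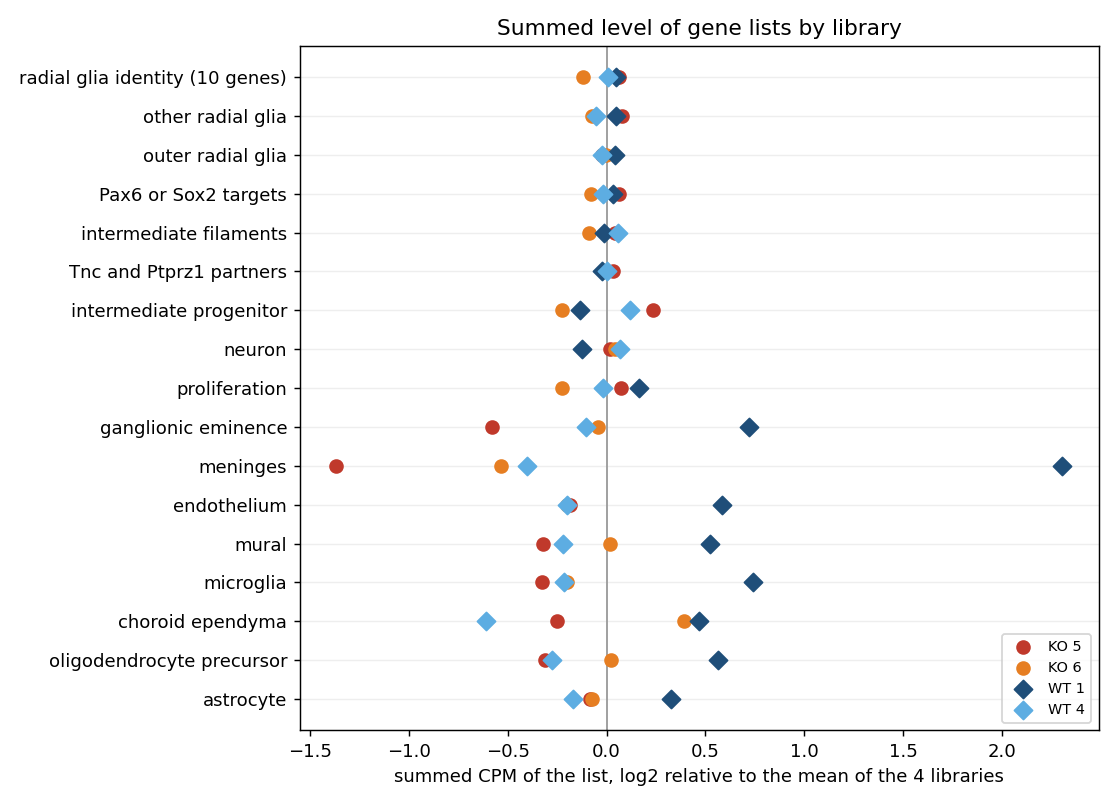
Summed CPM of the radial glia identity genes and of 16 further gene lists in each library (horizontal axis, log2 relative to the mean of the 4 libraries, 1 row per list; circles KO 5 and KO 6, diamonds WT 1 and WT 4). The radial glia rows at the top are narrow, while in the ganglionic eminence, meninges, endothelium, mural and microglia rows WT 1 stands to the right of the other 3 libraries.

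The members' median profile, as log2 deviations from each gene's mean, was 0.087 in KO 5, −0.159 in KO 6, −0.030 in WT 1 and 0.048 in WT 4. Among 191 tested genes of the lists, Cdk4, Lmnb1 and Lrrn1 came closest to it, judged by the largest absolute deviation over the 4 libraries. Cdk4, a cell cycle kinase, was within 0.052, Lmnb1, which encodes lamin B1, within 0.059, and Lrrn1, a membrane protein with leucine-rich repeats, within 0.065. Cdk4 had 611 and 543 CPM in KO 5 and KO 6, against 578 and 611 CPM in WT 1 and WT 4. Like the median profile it was lowest in KO 6, where 6 of the 10 members were lowest. The median profile varied little between libraries, so a list gene that varied little comes close to it.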

How the data were processed

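RNA from 4 libraries was sequenced with a TruSeq RNA kit, per the labels. Counts per Ensembl gene were made by the authors, whole numbers in the deposited tables. Per the submitters' processing notes the tools were HTSeq 0.6.0, TopHat2 2.0.12 and Bowtie2 2.2.3 and the build mm9, without roles or strand setting, while the positions deposited are those of GRCm38. The authors' deposited CPM values are counts scaled to library totals, per the file headers. The authors' deposited log2 fold changes and p-values compare 1 KO with 1 WT library, with a test not named there.

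Genes in both tables were filtered with filterByExpr, scaled by TMM and compared by edgeR 4.0.16 (quasi-likelihood, two-sided, Benjamini-Hochberg, threshold 0.05) in R 4.3.3, with no block. CPM in the text is TMM-scaled, and log2 ratios between 2 libraries use a prior count of 2. limma 3.58.1 and DESeq2 1.42.0 served as alternatives, and tables and plots were made with matplotlib 3.10.9, scipy 1.17.1 and pandas 2.3.3 in Python 3.11.15. Scripts were tested on simulated data. A count of 3, the floor of detection, was 0.171 to 0.184 CPM, and floors and counting errors cover counting error only. Exon lengths came from GENCODE mouse release 21 (GRCm38) and promoters from RefSeq (GRCm38.p6). The planned protein comparison of the Sox genes was not made here, and coding sequences were compared instead. The members and lists were chosen with earlier results of these data known. Genes named are the members, the 3 list genes with the lowest p in each of 6 lists, the 3 closest to the members' profile and Cd93. Other genes named with values (Tbr1, Fabp7, Ptn, Xist, Gm16401 and Hopxos) were chosen after their values were seen.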

Additional observations from a re-analysis of the deposited data

How the results depend on the processing

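The 11 alternatives changed scaling, filter, test, block, gene set or left out 1 library. Of the members, 5 (Sox1, Prom1, Hopx, Tnc, Ptprz1) kept their sign in all 11 and 5 turned, each only where a library was left out. Over those 4 fits the log2 fold change ran from −0.13 to 0.21 for Pax6, −0.52 to 0.10 for Sox2, −0.47 to 0.60 for Sox3, −0.22 to 0.11 for Nes and −0.34 to 0.21 for Vim. Of 22 other named genes 16 kept their sign, and Gpx3 (−2.0005 to 0.053), Pax6os1 (−0.22 to 1.18), Eomes (−0.16 to 0.48), Cdk4 (−0.13 to 0.043), Lmnb1 (−0.15 to 0.10) and Lrrn1 (−0.26 to 0.10) turned. The members' median ran from −0.25 without KO 5 to 0.11 without KO 6, and the number of members called from 0 to 1. Over all genes, edgeR called 2, DESeq2 8, the fit with the deposited table as a block 29, and protein-coding genes alone 0. In edgeR's fit to all tested genes without a block, 317 of them had an unadjusted p under 0.05. Leaving out a library gave 5 to 312 called genes (44 without WT 1, 312 without WT 4), and the library left alone in its genotype is then assumed to vary like the others. The cause was not tested. With a prior count of 0.5 the 20 ratios within a table shifted by at most 0.00852, less than their counting error. No paired analysis by replicate number was possible because the numbers of the genotypes (1 and 4, 5 and 6) are not shared; the block above pairs libraries by deposited table.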

Other observations

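Glial and other cell types that lie downstream or beside radial glia were measured too. Of 10 astrocyte genes, 9 were tested, with 4 higher and 5 lower in KO, none called by edgeR and a median log2 fold change of −0.21. They summed to 432 and 435 CPM in KO 5 and KO 6, against 575 CPM in WT 1 and 407 CPM in WT 4. Oligodendrocyte precursor genes (7 of 8 tested, 2 higher and 5 lower) summed to 49.4 and 62.4 CPM in KO 5 and KO 6, against 90.6 CPM in WT 1 and 50.6 CPM in WT 4. Genes of mural cells (7 of 8 tested, all 7 lower) summed to 139 and 176 CPM in KO 5 and KO 6, against 250 CPM in WT 1 and 149 CPM in WT 4. Choroid plexus and ependymal genes (6 of 8 tested, 3 higher and 3 lower) summed to 16.4 and 25.6 CPM in KO 5 and KO 6, against 27.0 CPM in WT 1 and 12.8 CPM in WT 4. WT 1 was the highest library in each of these 4 sums, and no gene of the 4 lists passed the test in edgeR or DESeq2, with 2 astrocyte genes at an unadjusted p under 0.05.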
